A study of Homo sapiens with 27 samples.

Results

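The introns of very long genes were the 1323 intron rows with 200000 or more intronic bases and 270 or more reads summed over the 27 libraries, out of 20216 intron rows in all and 1356 rows of that length. Each row adds up, for 1 protein-coding gene, the sequence of its strand that lies between the ends of the gene and outside any coding exon or 3′ UTR. The 27 libraries came from 3 human prostate cancer cell lines, LNCaP, LNCaP95 and 22Rv1, each transduced with lentivirus carrying a control hairpin (CTRL sh) or a hairpin that targets CPSF1, either CPSF1 sh1 or CPSF1 sh2. Each hairpin had 3 biological replicates per line. All cells had gone through puromycin selection and were grown for 72 h before RNA was taken, LNCaP95 in medium free of phenol red and the other lines in standard RPMI. LNCaP is an androgen-responsive line and LNCaP95 a derivative of it that grows without androgen, and LNCaP95 and 22Rv1 express an androgen receptor variant that lacks the hormone-binding part. The knockdown is a stable reduction in pooled transduced cells and not a loss of the gene.

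PAC-seq primes reverse transcription on poly(A) tails, so that a read marks where a polyadenylated RNA ends. CPSF1 is the large scaffold protein of CPSF, the complex that binds the AAUAAA hexamer and places the cut at which the tail is added. An intron holds many sequences that resemble such a site, U1 snRNP is known to keep them silent, and use of 1 of them ends the transcript before its last exon. Long genes also collect processed pseudogenes, the retrotransposed copies of spliced mRNAs, which carry the hexamer and often the remains of the poly(A) tail of the mRNA they were copied from. An intron row counts any read on the gene's strand, so it takes in the ends of intronically polyadenylated transcripts, of unspliced RNA primed at a genomic A stretch, of noncoding genes nested in the gene, and reads that map to a nested pseudogene.

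The sequences below come from just past the annotated end of a processed pseudogene in 7 of the rows described further on, 5′ to 3′ on the strand of both gene and pseudogene. Each holds the 30 bases from the first AATAAA or ATTAAA that is followed within 40 bases by the start of a 20-base stretch with more than 12 A, with the hexamer in capitals. They are shown because 5 of these rows are among the most read and the other 2 have the highest ratios of intron to 3′ UTR reads. Sequence is from GRCh37 and pseudogenes are from GENCODE v44 lifted to it, and all 7 lie on the minus strand.
STEAP1B, EEF1A1P6 (chr7:22549928-22549957): ATTAAAaaagttaaatgagaaaaaaaaaaa
CHCHD3, ENSG00000283041 (chr7:132719282-132719311): ATTAAAggaaactgaacattgaaaaaaaaa
FAM172A, NPM1P27 (chr5:93018222-93018251): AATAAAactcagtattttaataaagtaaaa
PCNXL2, RPS7P3 (chr1:233424566-233424595): AATAAAaaatatatattcacagtaaaaaaa
SIK3, RPS27P19 (chr11:116906447-116906476): AATAAAcacattttggattaaaaaaaaaaa
PLEKHA7, RPL36AP37 (chr11:16996187-16996216): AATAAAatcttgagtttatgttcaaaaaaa
MECOM, RPL22P1 (chr3:169200999-169201028): AATAAAatgcgggtttctgggcaaaaaaaa

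Of the 482 same-strand processed pseudogenes in the long introns, 208 (43.2%) had, within 1000 bases past their annotated end, such a hexamer and A stretch. Only the transcribed strand was searched, and each pseudogene was counted once however many matches it had, overlapping ones included. Of 68160 windows of the same length placed every 10 kb along the long introns, 15.2% held that combination. A match is a description of the letters and not evidence of a cleavage site, and the counts give no position of a read within a row.

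Long-gene introns ran from 200120 to 2295244 bases, with a median of 324204, and 60 of them exceeded 1 Mb. They fell on all 24 chromosomes, most on chromosomes 2 (112 rows), 3 (110) and 1 (104), while chromosome 19 had 5 of its 656 rows with enough reads. The length limit fell between DAPK1 (200120 bases, 2070 reads) and AHCYL2 (199992 bases, 5246 reads). The read limit fell between C10orf90 (284 reads) and BMPER (246 reads), and 33 rows of sufficient length were below it. All 1323 rows passed the filter of a mean above 2 CPM (reads scaled to the size of the library) in each line, with 3, 1 and 1 rows at 0 in some library of LNCaP, LNCaP95 and 22Rv1. Rows of 5000 to 50000 bases with the same read minimum, 4935 of 9635, are given beside them and are called short introns here.

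Libraries held 3452413 to 12425417 reads over the 4 deposited tables and 936970 to 3580071 in introns, of which 205539 to 757367 were in long introns. The shallowest was 22Rv1 CTRL sh 1, which also stood apart from the other controls of its line in several long-intron values given below. CPSF1 3′ UTR reads were lower after knockdown in each line (log2 −1.19, −1.06 and −0.72 for LNCaP, LNCaP95 and 22Rv1, edgeR quasi-likelihood test, adjusted p = 7.44e-05, 0.000214 and 0.0169). The summed 3′ UTR level of 9 luminal prostate markers went from 5947 to 6181 CPM in LNCaP controls to 4519 to 4972 after knockdown. LNCaP95 had 9751 to 10215 before and 6498 to 7561 after, and 22Rv1 3148 to 3293 before and 3505 to 3939 after. The sum over markers of fibroblasts, leukocytes, endothelium and basal epithelium (8 of 9 in the table) went from 43.0 to 58.9 CPM in controls to 45.3 to 54.2 after knockdown for LNCaP. LNCaP95 had 82.5 to 93.0 before and 108 to 168 after, and 22Rv1 32.0 to 35.3 before and 39.98 to 53.7 after, with COL1A2, PTPRC, KRT5 and TP63 at or near 0. The part of either shift in the results below was not tested, and in bulk RNA fewer cells of a kind and less RNA per cell cannot be told apart.

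Reads in long introns were concentrated in few genes. The 1323 rows held 11988741 reads, 22.3% of all intron reads, against 18.3% in the 4935 short introns, with a further 27.1% in 13 rows of MTRNR2L genes, which resemble mitochondrial rRNA. The 10 most read rows held 18.6% and the 100 most read held 50.6% of long-intron reads. The median row had 3658 reads, or 10.3 per kb of intron, against 47.4 per kb in short introns. Reads and length of the long introns had a Spearman correlation of 0.16 across 1323 genes, and intron reads and 3′ UTR reads of the same gene one of 0.62 (n = 1320), both given as descriptions across genes that share libraries and depth.

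**Figure D1:**
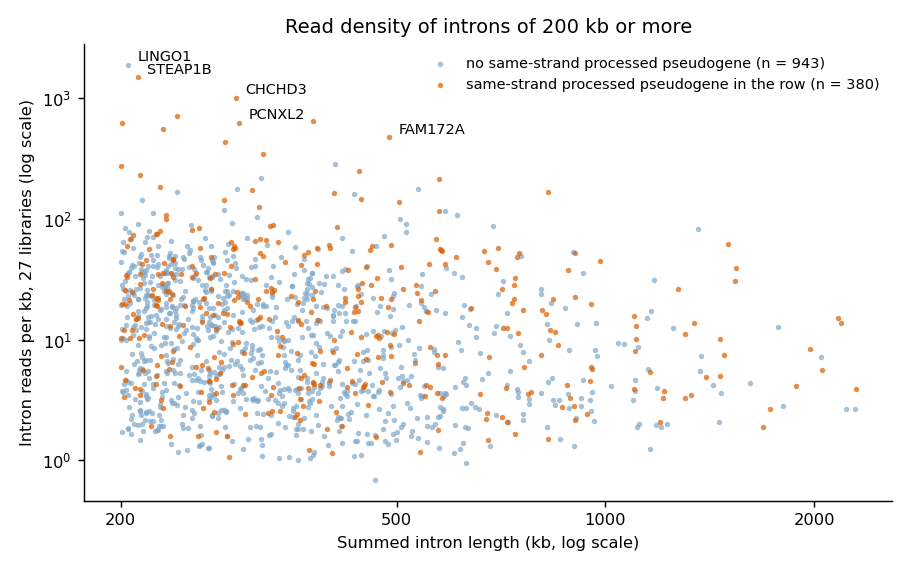
Intron length in kb against intron reads per kb over the 27 libraries, both on log axes, for the 1323 long-gene introns. Orange points hold a same-strand processed pseudogene (n = 380) and blue points do not (n = 943). Of the 5 labelled rows at the top 4 are orange, and LINGO1 is the blue point with the highest density, 1900 reads per kb.

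Rows with a processed pseudogene on the gene's strand carried more reads. There were 380 of them (28.7%), and they held 50.3% of long-intron reads at a median of 14.4 reads per kb, with values from 1.07 to 1494. Rows with a pseudogene on the opposite strand only had a median of 12.4 (n = 350) and rows with none on either strand 6.85 (n = 593), so the median moved with a pseudogene on either strand, while the 90th percentile lay at 66.3, 43.5 and 35.8. Of the 100 most read rows, 62 held a same-strand pseudogene and 44 held 1 with the hexamer and A stretch, against 10 and 4 of the 100 least read. Length differed as well, with a median row length of 364234 bases for rows with a same-strand pseudogene and 300334 for rows with none on either strand. In short introns 146 rows (2.96%) had such a pseudogene and held 13.6% of the reads, although per Mb of intron the short introns held more of them (1.22 against 0.867).

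The most read row was LINGO1 (chr15:77906385-78113242, minus strand, GRCh37), which encodes a Nogo receptor co-receptor of neurons. Its 389475 intron reads lay in a row with no annotated processed pseudogene, and GENCODE lists 1 nested same-strand gene there, ENSG00000280359, of unresolved type. Intron levels in controls were 2883, 3493 and 4972 CPM in LNCaP, 5190, 16982 and 5099 for LNCaP95, and 1155, 11218 and 9652 for 22Rv1. Replicates of 1 group thus differed several-fold, and the 22Rv1 control at 1155 is the shallow library. After knockdown LINGO1 introns rose in LNCaP (2370 to 12670 CPM, median 8931, log2 1.11 ± 0.30 SE, edgeR adjusted p = 0.00925) and did not pass the test in LNCaP95 (0.10 ± 0.35, adjusted p = 0.867) or 22Rv1 (−0.38 ± 0.40, adjusted p = 0.702). The knockdown range in LNCaP overlapped the controls.

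STEAP1B, a metalloreductase family gene, had 316353 intron reads and holds the EEF1A1 copy shown above. STEAP1B stood at 6671, 9880 and 7967 CPM in LNCaP controls, 3136, 3428 and 2810 for LNCaP95 and 3752, 12364 and 9932 for 22Rv1. The LNCaP95 controls were below those of LNCaP, and the lowest 22Rv1 value is the shallow library. STEAP1B had 7 reads in its 3′ UTR over all libraries. Of the 31-base stretches of EEF1A1P6, 83.6% occur in annotated EEF1A1 transcripts, so reads could be shared between the copy and EEF1A1, and the intron level is uncertain for that reason.

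Other highly read rows hold same-strand processed pseudogenes too. CHCHD3, a cristae organising protein of mitochondria, had 294992 intron reads, FAM172A 232642, PCNXL2 185358 and SIK3, an AMPK-related kinase, 173296. NPM1P27 in FAM172A shares 64.6% of its 31-base stretches with NPM1, RPS27P19 in SIK3 54.7% with RPS27, RPS7P3 in PCNXL2 22.9% with RPS7, RPL36AP37 in PLEKHA7 100% with RPL36A and RPL22P1 in MECOM 77.1% with RPL22. The median over the 308 pseudogenes with a named parent was 2.99%, and some copies in rows described below lay under it, such as RPS15AP3 in MDGA2 and PPIAP70 in FHIT, both with 0%.

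Relative to 3′ UTR reads of the same gene, long introns held far more reads than short ones. Over the 9 control libraries the median ratio of intron to 3′ UTR reads was 4.43 in the 832 long-intron genes with at least 27 3′ UTR reads (quartiles 1.97 and 11.0), against 0.306 in 4545 short-intron genes. The intron had more reads than the 3′ UTR in 725 of the 832 (87.1%) and in 908 of the 4545 short ones. The median climbed through every length class, 0.190, 0.416, 0.832 and 1.66 for 5 to 20, 20 to 50, 50 to 100 and 100 to 200 kb, then 3.18, 5.01 and 9.86 for 200 to 300, 300 to 500 and over 500 kb. LNCaP had 4.84 (short introns 0.324), LNCaP95 3.77 (0.303) and 22Rv1 4.31 (0.281). Without the read minimum the medians were 4.39 and 0.201. The ratio is not scaled for length, and per kb long introns had the lower density.

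**Figure D2:**
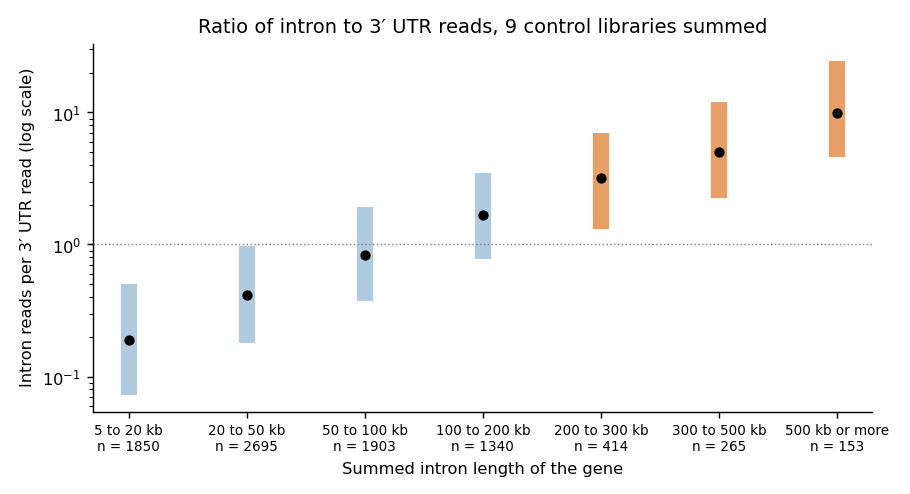
Ratio of intron to 3′ UTR reads in the 9 control libraries by intron length class, on a log axis, with points at the median over genes and bars at the quartiles. The median goes up from 0.190 in introns of 5 to 20 kb to 9.86 in introns over 500 kb.

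The highest ratios belonged to PLEKHA7, an adherens junction protein (735), MECOM, a zinc finger transcription factor (671), MDGA2, a synaptic adhesion regulator (563), and FHIT, a diadenosine hydrolase at the FRA3B fragile site (477). MDGA2 introns in LNCaP controls were at 3774, 3571 and 4072 CPM with 1, 0 and 0 3′ UTR reads, and in 22Rv1 at 2149, 2540 and 2925 CPM with 20, 27 and 28. In LNCaP, PLEKHA7 introns were at 2460, 2939 and 3432 CPM with 1, 9 and 13 3′ UTR reads. FHIT introns there were at 1126, 1200 and 1140 CPM with 2, 7 and 3 reads in the 3′ UTR. All 4 rows hold same-strand processed pseudogenes, and the median ratio was 6.68 for genes with such a pseudogene (n = 242) and 3.96 for those without (n = 590). RPL36AP37 in PLEKHA7 shares 100% and RPL22P1 in MECOM 77.1% of its 31-base stretches with its parent. Reads could thus be shared with RPL36A and RPL22, and the ratios of PLEKHA7 and MECOM are uncertain for that reason. The 491 genes with fewer than 27 3′ UTR reads in controls had few intron reads as well (median 3.46 per kb against 18.6), and 37 had no 3′ UTR read in any library while their introns held 1.17 to 6.38 reads per kb.

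The lowest ratios belonged to widely expressed genes. MRPL33, a mitochondrial ribosomal protein, had a ratio of 0.0250, EIF3E, a translation initiation subunit, 0.0424, RCN1, a calcium-binding protein of the endoplasmic reticulum, 0.0504, and SHFM1, a small proteasome and BRCA2 partner, 0.0582. In LNCaP controls EIF3E had 918, 815 and 830 CPM in its 3′ UTR and 39.8, 52.5 and 46.2 in its intron, each scaled to its own table. RCN1 stood at 206, 183 and 191 CPM in the 3′ UTR and 19.4, 15.2 and 15.3 in the intron. These 4 rows are at the short end of the long introns, from 214582 to 290423 bases.

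Between the lines, control intron levels differed by more than the replicate spread in a large share of long-gene introns. LNCaP95 against LNCaP gave 139 higher and 359 lower of 1323 (10.5% and 27.1%), where all tested introns gave 11.8% and 12.4%. For 22Rv1 against LNCaP there were 302 higher and 292 lower (background 15.0% and 16.1%), and for 22Rv1 against LNCaP95 461 higher and 225 lower (background 18.9% and 19.4%). Medians over long introns were −0.17, 0.06 and 0.24 on the log2 scale, next to 0.01, −0.00 and −0.01 over all tested introns. The 3 comparisons share control libraries, and a line is 1 culture lineage, so these differences are between these lines as grown here.

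The genes with the most different control levels are given on a scale set for the 9 controls together. TENM1 (teneurin 1, chrX:123514385-124097666) stood at 85.7, 67.3 and 82.1 CPM in LNCaP, 2736, 3302 and 2776 for LNCaP95, and 78.7, 70.5 and 91.1 for 22Rv1, with no overlap between LNCaP95 and the others. Its log2 difference was 5.23 ± 0.21 (SE) between LNCaP95 and LNCaP (edgeR adjusted p = 9.33e-20), and 22Rv1 against LNCaP gave 0.04 ± 0.20 (adjusted p = 0.908). NCAM2, a neural cell adhesion molecule, went the other way, with 5376, 7272 and 6386 CPM in LNCaP, 26.4, 19.2 and 47.9 for LNCaP95 and 363, 436 and 437 for 22Rv1. The 3 lines were apart from each other, and the LNCaP95 to LNCaP difference was −7.65 ± 0.30 (adjusted p = 3.23e-20). MMP16, a membrane metalloproteinase, was low in LNCaP95 too, at 5.19, 6.75 and 12.2 CPM against 493, 680 and 601 in LNCaP. TENM1, NCAM2 and MMP16 3′ UTR reads were high and low in the same lines, for example 123, 139 and 125 CPM for NCAM2 in LNCaP and 0, 0 and 0.894 in LNCaP95.

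PRKD1 (protein kinase D1) and EFNA5 (ephrin A5) were high in LNCaP, with PRKD1 at 4042, 5942 and 5261 CPM there, 228, 289 and 213 in LNCaP95 and 121, 147 and 155 in 22Rv1. EFNA5 stood at 949, 1332 and 1178, then 276, 398 and 322, then 72.3, 44 and 37.5 CPM. Both fell in steps over the 3 lines with no overlap. EPHA3, an ephrin receptor that binds ephrin A5, was instead highest in 22Rv1, at 51.0, 42.4 and 38.7 CPM in LNCaP, 14.3, 15.1 and 9.58 for LNCaP95 and 536, 592 and 563 for 22Rv1 (log2 5.44 ± 0.21 against LNCaP95, adjusted p = 2.02e-20). FAM110B (log2 4.78 ± 0.25, 22Rv1 against LNCaP, adjusted p = 4.66e-17) and TMEM178B (4.65 ± 0.23, adjusted p = 8.21e-18) were also high in 22Rv1. UNC80, a subunit of a sodium leak channel, was high in LNCaP95 (4.72 ± 0.23 against LNCaP, adjusted p = 1.2e-17), and PTPRM, an adhesion phosphatase, was low in 22Rv1 (−4.56 ± 0.20 against LNCaP95, adjusted p = 3.98e-19).

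CPSF1 knockdown raised more long introns than it lowered in LNCaP and LNCaP95, relative to the other introns of the same libraries. In LNCaP 223 rose and 90 fell of 1323 (16.9% and 6.80%), where all 11873 tested introns gave 8.43% and 5.95%. In LNCaP95 409 rose and 47 fell (30.9% and 3.55%, background 12.9% and 11.0%). In 22Rv1 71 rose and 38 fell (5.37% and 2.87%, background 2.75% and 1.60%). The short introns gave 327 and 258 of 4887, 422 and 776 of 4897, and 101 and 63 of 4903. Long introns had a median of 3658 reads and short ones 1011. Call shares, here and between control lines, are thus not matched for read depth. Median log2 changes were 0.16, 0.37 and −0.00 in long introns and −0.07, −0.16 and −0.00 in short ones. Changes here are edgeR quasi-likelihood fits of the 6 knockdown against the 3 control libraries of a line, scaled by trimmed means over the intron table.

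The split into higher and lower calls depended on that scaling, while the gap between long introns and all introns did not. Scaled instead by the sum of the 4 tables with factors from the 3′ UTR table, the median of all introns moved to −0.27 in LNCaP, −0.09 in LNCaP95 and 0.19 in 22Rv1. Calls became 95 higher and 214 lower in LNCaP (30.7% of calls higher, 71.2% before), 265 and 45 in LNCaP95, and 76 and 2 in 22Rv1 (97.4% higher, 65.1% before). The median of long introns minus that of all introns stayed at 0.16 in LNCaP (0.16 before), 0.38 in LNCaP95 (0.37 before) and −0.01 in 22Rv1 (−0.00 before). So the statement that long introns moved up holds relative to other introns in LNCaP and LNCaP95, and in LNCaP not relative to all reads.

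**Figure D3:**
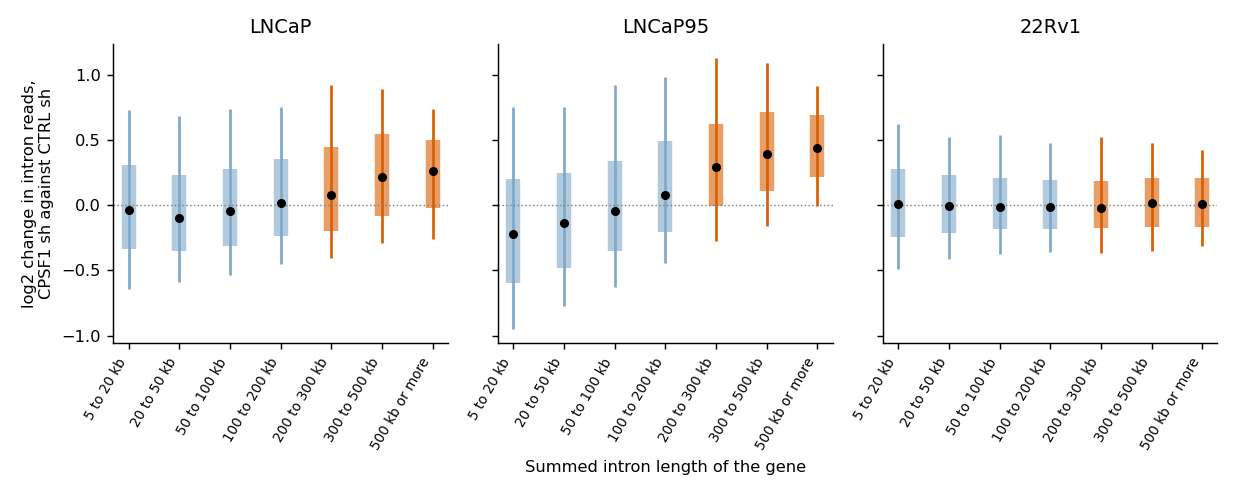
Change in intron reads after CPSF1 knockdown on the log2 scale by intron length class, 1 panel per line, with a dot at the median, a box over the quartiles and a line from the 10th to the 90th percentile of genes. In LNCaP95 the median goes from −0.22 in the shortest class to 0.44 over 500 kb, in LNCaP from −0.03 to 0.26, and in 22Rv1 it lies between −0.02 and 0.01.

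Within the long introns the change went on climbing with length in LNCaP and LNCaP95. In LNCaP95 the medians were 0.30, 0.39 and 0.44 for 200 to 300, 300 to 500 and over 500 kb, and 26%, 32.2% and 38.9% of genes rose. In LNCaP they were 0.08, 0.21 and 0.26, with 11.8%, 20.2% and 21.9% called higher. In 22Rv1 the medians were −0.02, 0.01 and 0.01, with 5.14%, 5.32% and 5.90% higher. Rows without a same-strand pseudogene (n = 943) had medians of 0.15, 0.39 and 0.02 and 142, 294 and 50 rising against 63, 29 and 19 falling in LNCaP, LNCaP95 and 22Rv1. Those with one (n = 380) had medians of 0.19, 0.31 and −0.05.

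Summed over genes, the share of all reads that lay in long introns moved less than the gene counts did. In LNCaP95 the controls had 4.42, 5.10 and 4.47% of the reads of the 4 tables in long introns, and the knockdown libraries 4.89 to 6.90%, with 5 of 6 above every control. The value of 6.90% is CPSF1 sh2 replicate 1, the shallowest library of that line, and the other 5 lay between 4.89% and 5.37%. In rows of 300 kb or more all 6 were above the controls, with means of 3.32% and 2.69%. In LNCaP the controls had 5.37, 6.49 and 5.97% and the knockdown libraries 5.08 to 5.86%, overlapping. In 22Rv1 the controls had 5.95, 4.86 and 5.27% and the knockdown libraries 5.73 to 6.43%, with 3 of 6 above all controls. Short introns went from a mean of 4.56% to 4.23% in LNCaP, where all 6 knockdown libraries were below the controls, from 4.70% to 4.39% in LNCaP95 and from 4.54% to 4.96% in 22Rv1. No test was run on these sums.

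**Figure D4:**
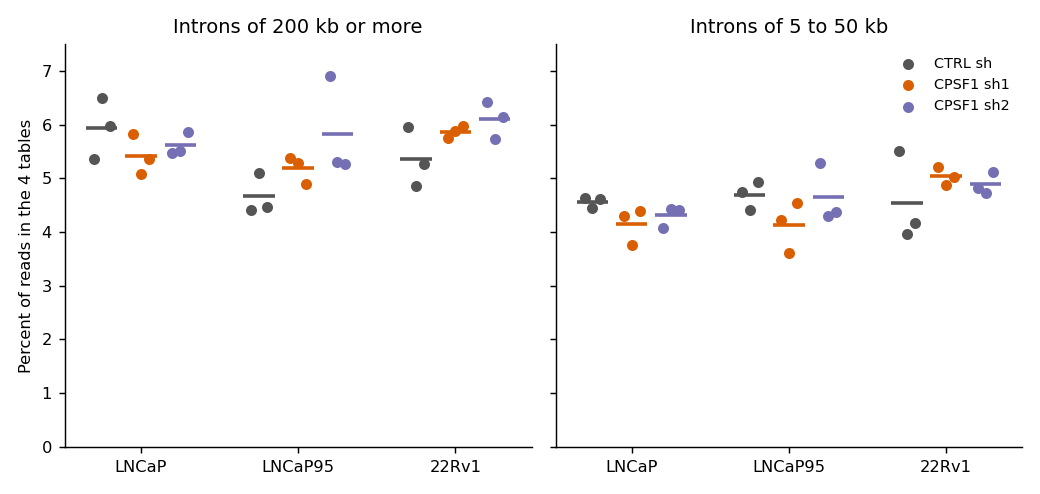
Percent of the reads of the 4 tables that lay in long-gene introns and in introns of 5 to 50 kb, by library, with points for libraries and bars for group means. In LNCaP95, long introns had 4.42 to 5.10% in controls and 4.89 to 6.90% after knockdown, and the control and knockdown ranges overlap in all 3 lines.

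Against the 3′ UTR of their own gene, fewer long introns were called than in the intron test. The same held over all genes tested, with 8.43% higher in the LNCaP intron test and 2.34% in the ratio test. The ratio test, a term for region by knockdown over the stacked intron and 3′ UTR counts, could be run for 645, 674 and 736 of the 1323 genes. It called 23 higher and 6 lower in LNCaP (background 2.34% and 1.32% of 8724 genes), 60 and 49 in LNCaP95 (5.25% and 8.71%) and 7 and 0 in 22Rv1 (0.357% and 0.0649%). At an unadjusted p below 0.05 edgeR gave 39 higher and 45 lower in 22Rv1, and without the low-count filter 2 were called lower there. DESeq2 was not fitted to the ratio. Medians were −0.08, −0.05 and −0.02, with −0.11, −0.17 and −0.02 over all genes tested. With the other scaling the LNCaP split turned to 13 higher and 19 lower (40.6% higher, 79.3% before). In LNCaP the number of lower calls, 6 with all libraries, varied with single libraries. It fell to 1 without CTRL sh 2 and 2 without CTRL sh 3, and went up to 11 without CPSF1 sh2 replicate 2.

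The 3′ UTRs of some of these genes moved along with the introns in LNCaP95 and LNCaP. In LNCaP95 161 rose and 68 fell of 674 (background 14.8% and 15.6%), with a median of 0.27 against 0.00 for all 3′ UTRs. In LNCaP 61 rose and 57 fell of 645 (background 8.17% and 10.2%), a split of 51.7% higher that became 68.6% with summed library sizes. The LNCaP median was 0.03 against 0.01 for all 3′ UTRs. In 22Rv1 1 rose and 5 fell of 736 (background 0.687% and 0.783%), and DESeq2 gave 12 and 15. Of the 409 LNCaP95 introns that rose, 207 had a tested 3′ UTR, of which 81 rose and 16 fell. Of the 223 in LNCaP, 76 had one, of which 31 rose and 8 fell, and of the 90 that fell 77 had one, of which 25 fell. In 22Rv1 42 of the 71 that rose had one, of which 1 rose, and the 3′ UTRs that fell there were not those of the 30 tested genes whose intron fell. The same shares over all genes with a called intron are not given. Whether such joint moves are particular to long introns was thus not tested.

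MGST1, a membrane glutathione transferase that acts on oxidised lipids, had the highest ratio rise in each line. Its intron row (chr12:16500076-16762193, plus strand) stood at 99.1, 123 and 123 CPM in LNCaP controls and at 345 to 578 after knockdown (median 443). In LNCaP95 the controls had 131, 171 and 164 and the knockdown libraries 616 to 1203 (median 992), and in 22Rv1 102, 120 and 101 and 266 to 349 (median 287). Every knockdown library was above every control in all 3 lines. The intron rose by log2 1.97 ± 0.16, 2.65 ± 0.21 and 1.46 ± 0.13 (adjusted p = 2.82e-10, 2.86e-10 and 6.42e-08), and the line-by-knockdown term set 22Rv1 below LNCaP95 (−1.17 ± 0.25, adjusted p = 0.00129). The 3′ UTR fell from 408, 374 and 430 CPM to 259 to 352 in LNCaP (log2 −0.36, adjusted p = 0.0405) and from 827, 836 and 819 to 485 to 615 in LNCaP95 (−0.60, adjusted p = 0.00086), and its change was −0.64 in 22Rv1 (adjusted p = 0.0622). The ratio rose by 2.32 ± 0.23, 3.23 ± 0.27 and 2.09 ± 0.22 (adjusted p = 5.6e-07, 6.09e-08 and 1.75e-05). The row holds the processed pseudogene ENSG00000256450.

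SHFM1 and HUS1 also rose in ratio in all 3 lines, which with MGST1 makes 3 of the 564 genes tested in each (background 0.249% of 8030). SHFM1 introns (chr7:96113170-96339203, minus strand) were at 37.4, 38.1 and 26.5 CPM in LNCaP controls and 67.1 to 103 after knockdown, at 49.7, 64.7 and 54.9 and then 149 to 380 in LNCaP95, and at 102, 96.1 and 91.3 and then 267 to 454 in 22Rv1. No knockdown library overlapped the controls. The SHFM1 ratio rose by log2 1.37 ± 0.21, 2.41 ± 0.29 and 2.04 ± 0.25 (adjusted p = 0.00026, 5.18e-06 and 7.79e-05), with the 3′ UTR at −0.02, −0.33 and −0.20, of which only that of LNCaP95 passed (adjusted p = 0.0435). HUS1, a DNA damage clamp subunit named after its values were seen, rose by 1.73, 1.89 and 1.40 in ratio (adjusted p = 0.00177, 0.000149 and 0.0285). The HUS1 intron rose by 1.14, 0.94 and 0.74 (adjusted p = 7.97e-05, 0.000676 and 0.0262). Its 3′ UTR had −0.61, −0.96 and −0.65 (adjusted p = 0.0472, 0.000195 and 0.179), so part of each ratio change lay there. SHFM1 holds no annotated processed pseudogene. By construction an intron row also holds sequence past the 3′ UTR of a shorter transcript where a longer one is annotated. Whether the rises of MGST1, SHFM1, HUS1 and MRPL33 lie there was not tested, as the counts give no position within a row.

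MRPL33 rose in 3 lines in the intron and in 2 in the ratio. Its intron was at 5.83, 12.4 and 6.28 CPM in LNCaP controls and 30.1 to 44.9 after knockdown (log2 2.16 ± 0.26, adjusted p = 2.63e-07), and at 7.72, 8.16 and 6.43 and then 27.4 to 56.2 in LNCaP95 (2.46 ± 0.30, adjusted p = 3.37e-07). In 22Rv1 it was at 16, 11.6 and 9.41 and then 13.6 to 53.5, which overlap (1.53 ± 0.36, adjusted p = 0.0124, and 0.92 with adjusted p = 0.285 with CPSF1 sh1 alone). The 22Rv1 call was also lost without CTRL sh 2 or CTRL sh 3. The ratio rose by 1.76 and 2.31 in LNCaP and LNCaP95 (adjusted p = 0.000335 and 7.33e-05) and was 1.31 in 22Rv1 (adjusted p = 0.169). Part of the MRPL33 span lies under BRE on the same strand, so its reads are uncertain.

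**Figure D5:**
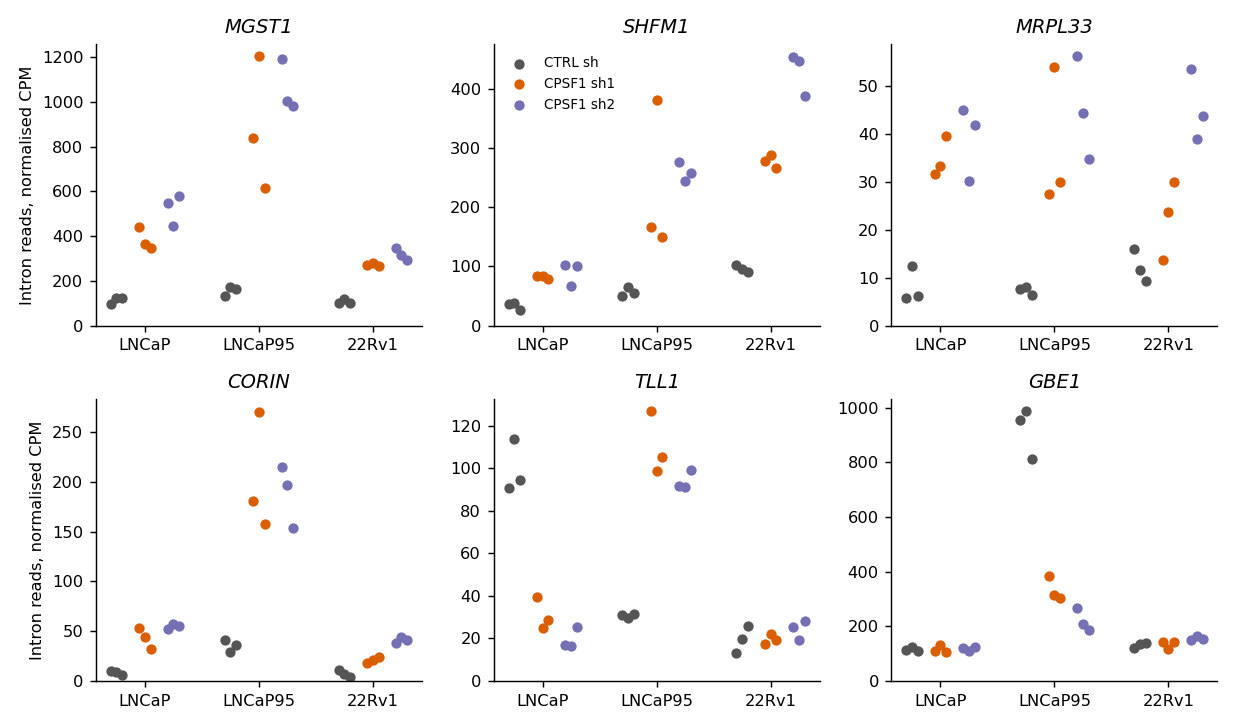
Intron CPM by library for MGST1, SHFM1, MRPL33, CORIN, TLL1 and GBE1 in the 3 lines, controls and both CPSF1 hairpins. MGST1 goes from 131 to 171 CPM in LNCaP95 controls to 616 to 1203 after knockdown, GBE1 from 811 to 987 to 188 to 385, and TLL1 falls in LNCaP and rises in LNCaP95.

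Some ratio changes of other genes came with opposite 3′ UTR moves. STXBP6, a SNARE-binding protein, rose in LNCaP introns from 16.5, 19.2 and 14.4 CPM to 27.2 to 38.8 while its 3′ UTR fell (log2 −1.27 ± 0.41, adjusted p = 0.0388), a ratio change of 2.29 ± 0.44 (adjusted p = 0.00228). TSNAX-DISC1 did so in LNCaP95 (ratio 3.21 ± 0.41, adjusted p = 1e-05), but most of its span is shared with DISC1 on the same strand, so its reads are uncertain. RGS5, a regulator of G protein signalling, rose in both places and more in the 3′ UTR, where LNCaP95 went from 2.84, 4.60 and 2.24 to 16.5 to 40.4 CPM. Its ratio fell by 1.55 in LNCaP (adjusted p = 0.0297, and 0.0953 with CPSF1 sh1 alone, and lost on leaving out any 1 of 4 of the 9 libraries) and by 1.82 in LNCaP95 (adjusted p = 0.000164). RIT2, a neuronal small GTPase, and NRCAM, a neural adhesion molecule, were called lower in LNCaP95, where their 3′ UTRs had 0 reads in all 3 controls and 8 to 34 and 4 to 40 reads after knockdown, so no fold is given. The RIT2 call was lost without any 1 of those controls.

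Across lines, 36 long introns rose in all 3 (background 1.72% of the 11376 introns tested in each line), 4 fell in all 3 (SIK3, CAST and SORBS2 among them, background 0.123%), and 35 were called in opposite directions in some pair (background 0.888%). With the other scaling the counts for all 3 lines were 27 and 0. CORIN, a transmembrane serine protease that cleaves natriuretic peptide precursors, had the highest mean rise. Its introns went from 9.72, 8.82 and 5.83 CPM to 31.9 to 57.4 (median 52.9) in LNCaP, from 41.5, 29.1 and 36.6 to 154 to 270 (median 189) in LNCaP95, and from 11.0, 7.12 and 3.87 to 17.8 to 44.3 (median 31) in 22Rv1. The groups did not overlap in any line, and the changes were 2.57 ± 0.24, 2.44 ± 0.20 and 2.20 ± 0.38 (adjusted p = 3.8e-09, 3.67e-10 and 0.000612). CORIN had almost no 3′ UTR reads, at most 3 in any control and 17 in any knockdown library.

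Among the other genes that rose in 3 lines, NEB, EPHB1 and RP11-432B6.3 were the next named. NEB, the giant thin-filament protein of muscle, rose by 2.36 ± 0.21, 2.74 ± 0.20 and 1.02 ± 0.29 (adjusted p = 8.92e-10, 8.18e-11 and 0.0445). Its 22Rv1 controls were at 6.01, 24 and 20.5 CPM, the lowest being the shallow library, and without that library the change was 0.69 and did not pass (adjusted p = 0.16). The NEB call in 22Rv1 was lost on leaving out any 1 of 6 of the 9 libraries. EPHB1, an ephrin B receptor, rose by 2.12 ± 0.32, 2.35 ± 0.29 and 1.52 ± 0.22 (adjusted p = 1.4e-05, 5.95e-07 and 8.11e-05). RP11-432B6.3, which overlaps TRIM59 on the same strand and is uncertain for that reason, rose by 2.13, 2.31 and 2.51 (adjusted p = 7.17e-05, 3.15e-06 and 1.66e-05). EPHB1 in 22Rv1 went from 17.0, 14.2 and 21.6 CPM to 40.5 to 62.5, and in LNCaP95 from 11.1, 5.83 and 8.41 to 25.9 to 65.0, with no overlap.

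Falls in several lines were smaller. SIK3 introns went from 4425, 4003 and 4684 CPM to 2136 to 3519 in LNCaP, from 3168, 2556 and 3139 to 1095 to 2193 in LNCaP95, and from 4767, 4861 and 5730 to 3022 to 4287 in 22Rv1. Every SIK3 knockdown library was below every control of its line, and the log2 changes were −0.62, −0.94 and −0.51 (adjusted p = 0.00345, 0.00048 and 0.0364). RPS27, the parent of the pseudogene in SIK3, gave −0.93, −0.94 and −0.22 in its 3′ UTR (adjusted p = 0.00054, 0.000352 and 0.592). RPS27P19 shares 54.7% of its 31-base stretches with RPS27, so reads could be shared and the SIK3 level is uncertain. RPS15A, the parent of a copy in MDGA2 with 0% shared, gave −0.45, −0.45 and −0.40 (adjusted p = 0.011, 0.0149 and 0.0801), where MDGA2 introns had 0.29, −0.14 and −0.27, none past the test. RPL36A, the parent of the copy in PLEKHA7 with 100% shared, gave −0.21, −0.10 and −0.00. PLEKHA7 introns had 0.13, −0.23 and −0.36, none past the test. Whether intron rows follow the parents of their pseudogenes was not tested. TTC6 fell in LNCaP (2370, 3171 and 2790 CPM to 961 to 1256, −1.30 ± 0.13, adjusted p = 1.88e-08) along with its 3′ UTR (−1.39, adjusted p = 4.46e-06) and in LNCaP95 (−0.83, adjusted p = 0.00152). CAST, the calpain inhibitor (−0.74, −0.48 and −0.62), SORBS2, an actin-binding adaptor (−0.68, −0.57 and −0.53), and KCND3, a potassium channel, which passed in LNCaP (−0.73, adjusted p = 0.0318) and LNCaP95 (−1.03, adjusted p = 0.000223), were the others named. In 22Rv1 the calls of SIK3, CAST and SORBS2 were lost with the other scaling (adjusted p = 0.372, 0.304 and 0.45), and those of SIK3 and SORBS2 also with a replicate block (adjusted p = 0.0576 and 0.0679). On leaving out 1 library the 22Rv1 call was lost in 6 of 9 cases for SIK3, 5 for SORBS2 and 2 for CAST, and outside 22Rv1 in 5 of 9 for CAST in LNCaP95, 4 for KCND3 in LNCaP, and 1 for CAST in LNCaP (CTRL sh 1).

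Some long introns responded in 1 line and not, or oppositely, in another, as tested by the line-by-knockdown term. It called 215 higher and 34 lower for LNCaP95 against LNCaP (background 4.88% and 3.18%), 50 and 59 for 22Rv1 against LNCaP (1.98% and 1.77%) and 19 and 205 for 22Rv1 against LNCaP95 (4.01% and 5.10%). With the other scaling the split for 22Rv1 against LNCaP went from 45.9% to 91.4% higher and that for 22Rv1 against LNCaP95 from 8.48% to 39.1%. The 3 terms share libraries.

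TLL1, a tolloid-like protease of the extracellular matrix, moved in opposite directions in related lines. In LNCaP its introns went from 90.8, 114 and 94.7 CPM to 16.5 to 39.3 (log2 −1.96 ± 0.18, adjusted p = 2.23e-09) and in LNCaP95 from 30.9, 29.7 and 31.7 to 91.2 to 127 (1.73 ± 0.18, adjusted p = 1.98e-08), a difference of 3.74 ± 0.27 (adjusted p = 1.22e-14). TLL1 3′ UTRs did the same, with −2.48 ± 0.40 and 2.06 ± 0.49 (adjusted p = 0.000314 and 0.00381), and the ratio did not pass. In 22Rv1 the controls were at 13, 19.6 and 26 CPM and the knockdown libraries at 17.4 to 28.3 (0.11, adjusted p = 0.882). ADARB2, an adenosine deaminase family member without known editing activity, fell in LNCaP from 131, 182 and 169 CPM to 17.1 to 31 (−2.80 ± 0.16, adjusted p = 4.26e-14), to about the level that LNCaP95 and 22Rv1 controls already had (21.8 to 23.3 and 19 to 29.3 CPM, each line on its own scale).

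TPRG1 and RIT2 rose in LNCaP and LNCaP95 and did not pass in 22Rv1. TPRG1 went from 15.0, 22.7 and 8.41 CPM to 82.3 to 236 in LNCaP95 (3.25 ± 0.30, adjusted p = 2.69e-09) and from 15.1, 16.4 and 18.8 to 38.5 to 82.1 in LNCaP (1.90 ± 0.22, adjusted p = 2.61e-07). In 22Rv1 the TPRG1 controls were already at 109, 115 and 92.4 CPM and the change was 0.14 ± 0.14 (adjusted p = 0.703). RIT2 in LNCaP95 went from 9.17, 12.8 and 13.4 to 45.0 to 156 CPM (2.97 ± 0.32, adjusted p = 5.68e-08). TG, the thyroglobulin gene, rose in LNCaP (2.62 ± 0.35, adjusted p = 1.93e-06) and LNCaP95 (1.90 ± 0.27, adjusted p = 6.64e-06), in LNCaP from 4.86, 3.61 and 2.69 CPM to 14.6 to 33.9.

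GBE1, the glycogen branching enzyme, fell in LNCaP95, where its intron level was high. The LNCaP95 controls were at 955, 987 and 811 CPM and the knockdown libraries at 188 to 385 (median 285, −1.72 ± 0.18, adjusted p = 1.96e-08), while LNCaP stood at 112, 124 and 109 and 22Rv1 at 122, 135 and 138 with changes of 0.02 and 0.14 (adjusted p = 0.929 and 0.63). The GBE1 3′ UTR in LNCaP95 was at 37.6, 36.6 and 33.5 CPM and 19.4 to 40.5 after knockdown (−0.24, adjusted p = 0.329), so the ratio fell by 1.49 ± 0.24 (adjusted p = 0.000153). The row holds the pseudogene SETP6. In 22Rv1, PAK3, a p21-activated kinase, fell from 35.1, 45.4 and 64.8 CPM to 21.3 to 29.1 (−0.98 ± 0.19, adjusted p = 0.00214, lost without CTRL sh 3), and SAMD4A, an RNA-binding translational repressor, from 84.1, 78.3 and 80.8 to 34.5 to 51.1 (−0.95 ± 0.15, adjusted p = 0.000205).

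Genes that set the lines apart in controls moved as well. MMP16 introns fell in LNCaP from 428, 591 and 522 CPM to 160 to 269 (−1.28 ± 0.14, adjusted p = 5.09e-08) and rose in 22Rv1 from 245, 225 and 252 to 351 to 427 (0.65 ± 0.11, adjusted p = 0.000609), a difference of 1.99 ± 0.22 (adjusted p = 5.2e-08). EFNA5 fell in LNCaP (−0.65 ± 0.13, adjusted p = 0.000917) and rose in LNCaP95 from 308, 447 and 366 to 553 to 1493 CPM (1.29 ± 0.23, adjusted p = 0.000142), with its 3′ UTR moving alike (−0.73 and 0.75, adjusted p = 0.000395 and 0.00451). PRKD1 fell in LNCaP (−0.88 ± 0.15, adjusted p = 6.5e-05) and rose in LNCaP95 (0.60 ± 0.18, adjusted p = 0.0174), and the line-by-knockdown term was 1.53 ± 0.24 (adjusted p = 1.81e-05). FAM110B rose in all 3 lines (1.77, 1.96 and 0.78, adjusted p = 2.27e-05, 0.000346 and 0.000347).

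By function, the members of 5 gene lists were counted. Every list is a subset of the long introns, so the share to set beside it is that of all 1323 long introns. Their share called higher was 16.9% for LNCaP, 30.9% for LNCaP95 and 5.37% for 22Rv1. Lower calls made up 6.80%, 3.55% and 2.87%, and the median log2 changes were 0.16, 0.37 and −0.00. Whether a list differs from the other long introns was not tested. Of 61 long-intron genes of cell adhesion and neuronal surface, 19 rose and 5 fell in LNCaP, 20 rose and 2 fell in LNCaP95, and 5 rose and 1 fell in 22Rv1, with medians of 0.39, 0.36 and −0.03. Of 41 genes at common fragile sites, which are long, late-replicating loci prone to breakage, 5 rose and 4 fell in LNCaP, 19 rose and 1 fell in LNCaP95, and 1 rose and 1 fell in 22Rv1 (medians 0.10, 0.42 and −0.02). Of 50 transcription and chromatin genes, 5 rose and 4 fell in LNCaP and 1 and 2 in 22Rv1. In LNCaP95 14 of those 50 rose and 0 fell, with 0 lower also at an unadjusted p by edgeR and in DESeq2. Medians for that list were 0.15, 0.30 and 0.01.

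Of 46 regulators of small GTPases, 9 rose and 5 fell in LNCaP, 15 rose and 3 fell in LNCaP95, and 5 rose and 2 fell in 22Rv1 (medians 0.06, 0.29 and −0.01). Of 50 signalling kinases, phosphatases and phosphodiesterases, 14 rose and 4 fell, 16 and 2, and 3 and 1 (medians 0.03, 0.26 and 0.06). With the other scaling the LNCaP medians of the 5 lists moved below 0 except that of the adhesion list (0.11), and 12 of the 50 transcription genes and 12 of the 46 GTPase regulators were then called lower in LNCaP, while the LNCaP95 medians stayed between 0.17 and 0.35. Higher calls went from 19 to 6 for the adhesion list and from 14 to 2 for the kinase list in LNCaP, and in LNCaP95 from 20 to 8 for adhesion, 19 to 9 for fragile sites and 16 to 8 for kinases.

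Among the most read genes of each list, some passed the test in a line and others in none. PRKD1, described above, passed in LNCaP and LNCaP95, and PLEKHA7 introns in no line. NAALADL2, a fragile site gene with 112678 intron reads, fell in LNCaP from 2752, 3857 and 3282 CPM to 2009 to 2587 (−0.51 ± 0.14, adjusted p = 0.0125) and had 0.40 ± 0.21 in LNCaP95 (adjusted p = 0.175). FHIT had 0.16, 0.26 and −0.27 in LNCaP, LNCaP95 and 22Rv1, none past the test (adjusted p = 0.436, 0.303 and 0.285). MECOM (0.34, 0.07 and −0.30) and RERE, an arginine-glutamic acid repeat corepressor (−0.32, −0.14 and 0.17), did not pass in any line either. PARD3, a polarity scaffold, rose in ratio in LNCaP95 (1.26 ± 0.40, adjusted p = 0.0357), where its 3′ UTR change was −1.08 (adjusted p = 0.0749). DOCK9, a Cdc42 exchange factor, fell in 22Rv1 introns (−0.48 ± 0.11, adjusted p = 0.0114) and in LNCaP95 ratio (−0.90 ± 0.26, adjusted p = 0.0254), and PPP3CA, the calcineurin catalytic subunit, had 1261 to 7640 3′ UTR reads per control library and changes of −0.28, 0.29 and 0.13 in its intron, none past the test (adjusted p = 0.16, 0.269 and 0.651).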

How the data were processed

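Total RNA of 27 cultures was made into poly(A)-ClickSeq (PAC-seq) libraries. Per the submitters' processing notes reads were mapped to GRCh37 with HISAT2 2.1.0 and counted with Subread 2.0.3. The values are raw read counts per gene, deposited by the authors in 4 tables (3′ UTRs, introns, coding sequence and 10 kb downstream). The authors counted a read by its 3′-most base on the gene's strand, extended 3′ UTRs by 300 bases, and made intron rows by subtracting coding and 3′ UTR sequence from protein-coding genes of Ensembl GRCh37 v87, so 5′ UTR exons, noncoding exons and nested noncoding genes stay in them. Their poly(A) site pipeline drops sites with more than 12 A in the next 20 genomic bases, and whether that filter acted on these tables is not given in the sources used here.

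Counts were tested in R 4.3.3 with edgeR 4.0.16 (quasi-likelihood, trimmed-mean factors per table, mean above 2 CPM, Benjamini-Hochberg over all rows, threshold 0.05), control against both hairpins. The ratio test stacked intron and 3′ UTR counts with a library term. Scripts were tested on simulated data. Alternatives were DESeq2 1.42.0, another scaling, no filter, a replicate block, each hairpin alone and each library left out. Members and lists were chosen with earlier results of these data known. Genes were named by rule: the 6 most read rows, the 4 highest and 4 lowest control ratios, the 6 highest and 6 lowest changes called in 2 or more lines, the 2 highest and lowest per line, per ratio test and per line contrast, and the 2 most read of each list. Pseudogenes came from GENCODE v44 lifted to GRCh37, counted where at least 0.5 of their length lay in the row, and 1258 of 1323 symbols were found there. RefSeq tables were not used. Some genes that these rules name are not reported here.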

Additional observations from a re-analysis of the deposited data

Results flagged for a closer look

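LNCaP95 CPSF1 sh2 replicate 1 lay far from the other 5 knockdown libraries of its line, with 6.90% of all reads in long introns and 431 intron reads per 100 3′ UTR reads of the same genes. The threshold for such a gap, Dixon's 95% critical value, is passed by chance in about 1 in 20 groups. This library was also the shallowest of LNCaP95, with 5431900 reads over the 4 tables, and the part of depth was not tested.

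The remaining values are differences between lines in the knockdown effect that passed the line-by-knockdown test on the log2 scale. For LNCaP95 against LNCaP they were 3.05 for ADARB2, 3.74 for TLL1, 1.40 for TPRG1 and −1.70 for GBE1. For 22Rv1 against LNCaP they were −1.28 for NEB, 1.36 for TTC6, −2.07 for TG, 3.02 for ADARB2, 2.13 for TLL1, −1.70 for TPRG1 and −2.09 for RIT2. For 22Rv1 against LNCaP95 they were −1.71 for NEB, −1.17 for MGST1, 0.84 for TTC6, −1.61 for TLL1, −3.11 for TPRG1, −2.87 for RIT2, 1.88 for GBE1, −1.20 for PAK3 and −0.94 for SAMD4A.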

How the results depend on the processing

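Of the counts and summed values recomputed, 484 stayed within 1.5 times the reported count or 1 SD of it and 83 did not. For single genes 829 alternatives kept the call, 57 lost it and 9 turned the sign, all 9 of TTC6 in 22Rv1, which was not called. Its log2 change there was −0.00, and 0.16 under the other scaling (summed sizes of the 4 tables, 3′ UTR factors), 0.000377 with a replicate block and 0.056 with CPSF1 sh2 alone.

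With that scaling LNCaP had 95 higher and 214 lower long introns, 265 were higher in LNCaP95 and 2 lower in 22Rv1. Ratio calls became 13 higher and 19 lower for LNCaP and 39 and 29 for LNCaP95. Controls of LNCaP95 against LNCaP gave 89 higher, and the line-by-knockdown term gave 16 lower for LNCaP95 against LNCaP, 117 higher and 11 lower for 22Rv1 against LNCaP, and 42 lower for 22Rv1 against LNCaP95. For 3′ UTRs, summed sizes alone gave 33 lower in LNCaP and by edgeR 0 higher in 22Rv1 (63 at an unadjusted p below 0.05), where DESeq2 gave 12 higher and 15 lower and the replicate block 0 higher. Without the filter the ratio gave 17 lower in LNCaP and 2 in 22Rv1. CPSF1 sh1 alone gave 257 and 25 introns in LNCaP95, 20 and 4 in 22Rv1, 14 lower ratios in LNCaP, 25 and 12 in LNCaP95 and 2 higher in 22Rv1. CPSF1 sh2 alone gave 55 lower introns and 2 lower ratios in LNCaP. For LNCaP intron reads per 3′ UTR read, the median over genes was −0.41 on the log2 scale where the sum gave −0.23. The cause of these moves was not tested.

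Leaving out 1 library gave 49 to 106 lower introns in LNCaP (49 without CTRL sh 2), 27 to 48 in LNCaP95 (27 without CTRL sh 1), and 37 to 82 higher and 12 to 79 lower in 22Rv1 (37 and 12 without CTRL sh 3, 79 without CTRL sh 1). Higher introns were 154 to 249 in LNCaP and 281 to 440 in LNCaP95. Ratio calls were 13 to 24 higher and 1 to 11 lower in LNCaP, 27 to 53 lower in LNCaP95, and 2 to 10 higher and 0 to 1 lower in 22Rv1. For 3′ UTRs they were 37 to 73 higher and 35 to 67 lower in LNCaP and 0 to 7 higher and 3 to 18 lower in 22Rv1. The line-by-knockdown term gave 30 to 55 higher and 29 to 94 lower for 22Rv1 against LNCaP (94 without 22Rv1 CTRL sh 1) and 133 to 248 lower for 22Rv1 against LNCaP95. The summed 22Rv1 change per 3′ UTR read was 0.047 to 0.38 (0.38 without CTRL sh 1, 0.18 with all libraries), and TTC6 in 22Rv1 was −0.035 to 0.040.

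No pairing of the samples by replicate number was seen (correlations of same-numbered libraries −0.064 to 0.103, 1 of 27 over 0.1). These correlate deviations from group means over the tested introns, many with few reads, so a weak shared batch could go unseen. The replicate block called 208 introns higher and 77 lower for LNCaP, 414 and 49 for LNCaP95 and 64 and 30 for 22Rv1. Another alternative was added after seeing the data, the long introns without a same-strand processed pseudogene. Their mean share of all reads went from 2.87% to 2.53% in LNCaP, from 2.32% to 2.96% in LNCaP95 (5 of 6 libraries above the controls) and from 2.52% to 3.06% in 22Rv1 (4 of 6).

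Depth limits the ratio, since 491 long-intron genes had fewer than 27 control 3′ UTR reads and have no ratio, and the shallowest library, 22Rv1 CTRL sh 1, held 3452413 reads.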
